A study of Homo sapiens with 16 samples.

Results

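The translation initiation and elongation factors are the proteins that load ribosomes onto mRNA and carry them along the coding sequence. They were taken here as the protein-coding genes of the annotation whose symbols start with EIF or EEF, without the kinases EIF2AK1 to EIF2AK4, which made 68 genes in the annotation. The set was defined by symbol, so it also holds genes that act on the factors, such as the kinase EEF2K and the inhibitor EIF4EBP1. Of the 68 genes, 61 were among the 10823 transcripts listed in the series. Ribosome-protected footprints (RPFs), which are the mRNA fragments covered by translating ribosomes, and RNA were sequenced from 4 human breast cancer lines, each with 2 RPF and 2 RNA libraries. The parental cells, MDA-MB-231, lack the hormone receptors and HER2 and rarely spread, whereas MDA-LM2 was derived from them and colonises the lung. The other lines, sgControl and sgHNRNPC, are MDA-MB-231 cells that carry a dCas9-KRAB repressor, with a control guide or a guide against HNRNPC, a nuclear protein that binds runs of U in RNA. MDA-LM2 was compared with parental cells, and sgHNRNPC with sgControl. Translational efficiency (TE) is the RPF signal divided by the RNA signal.

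Of the 68 factors, 61 were listed for MDA-LM2 and parental cells (the first table) and 56 for sgHNRNPC and sgControl cells (the knockdown table), and all 56 were among the 61. RNA was tested for each of them. RPF and TE were tested for the 55 and 44 factors whose mean signal was at least 10 in both kinds of library. The listed factors fell into 10 EIF2, 14 EIF3, 12 EIF4, 15 EEF and 10 other EIF genes in the first table and into 10, 14, 11, 11 and 10 in the other. EIF2B5, EIF4A3, EIF4E1B, EIF4E3, EIF4EBP3, EIF1AY and EEF1E1-BLOC1S5 matched no listed transcript. No signal was available for them, and they entered only the search of annotated starts. EEF1AKMT1, EEF1AKMT3, EEF1AKMT4, EEF1AKMT4-ECE2 and EIF4EBP2 were listed for MDA-LM2 and parental cells only. Under the minimum in the first table were EEF2KMT and those 5, and in the knockdown table EEF1AKMT2, EEF2K, EEF2KMT, EEFSEC, EIF1AD, EIF1B, EIF2B4, EIF2D, EIF2S3B, EIF4E2, EIF4ENIF1 and EIF5A2.

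Translation starts when EIF2 delivers the initiator tRNA to the small ribosomal subunit, while the multi-subunit EIF3 holds that subunit and the EIF4 proteins bring it to the capped end of the mRNA. EIF2B recharges EIF2 with GTP, EIF1, EIF1AX and EIF5 govern start codon choice, and EIF5B joins the large subunit. EEF1A then delivers each aminoacyl tRNA, EEF1B2, EEF1D and EEF1G recharge EEF1A, and EEF2 moves the ribosome on by a codon. Many of these mRNAs belong to the TOP class, which starts with a C and a run of pyrimidines and whose translation follows mTOR activity.

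RNA signal summed to 7023010 to 8326050 per library in the first table and to 5415890 to 5559040 in the other. RPF signal summed to 650736 to 679726 and to 158011 to 167928, so the RPF values of the knockdown table were the lower ones. These are sums of normalised signal and do not give the depth in reads. VIM, CD44, CAV1, AXL, MSN and ANXA1, which MDA-MB-231 cells express, all lay above the 95.2 percentile of RNA signal in both control lines, and of the luminal genes ESR1, PGR, FOXA1 and GATA3 only GATA3 was listed, in the first table at 12.5. The pair of MDA-LM2 RNA libraries differed more than the other RNA pairs. The median factor differed between them by 0.22 on the log2 scale, against 0.08 in parental, 0.06 in sgControl and 0.05 in sgHNRNPC cells, and EIF1, EIF3G and EIF5B differed by more than 1.5 times. EIF3G gave 1851 in MDA-LM2 RNA replicate 1 and 956 in replicate 2, and EIF5B gave 146 and 305.

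Between parental and MDA-LM2 cells the factors as a whole had the median RNA change of all genes. Their median RNA change was -0.02 on the log2 scale, with 28 factors above 0 and 33 below, and the median of all 10799 transcripts was also -0.02. Their median RPF change was 0.01 against -0.01 over all 8393 tested. RNA was called at an adjusted p under 0.05 for 6 of the 61 factors, which is 9.84% of them, while 16.6% of all transcripts were called. EEF1A2, EIF6, EIF3I and EIF4H were lower in MDA-LM2, and EIF4ENIF1 and EIF4A2 were higher. RPF was called for 4 of 55 factors, or 7.27%, against 12% of all tested. EEF1A2, EIF4H and EIF3K had fewer footprints in MDA-LM2 and EIF4A2 had more. These shares were below the background, so calls were no more frequent among the factors than among all genes. In bulk libraries, a change in some of the cells and a smaller change in all of them cannot be told apart. When each library was set to the same total, the median RNA change over all transcripts went from -0.02 to 0.15, the share of higher calls among all RNA calls from 39.8% to 67.5%, and that among the factors from 2 of 6 to 6 of 10. It moved the share of higher RPF calls from 41.6% to 54.3%. Quantile normalisation gave the factors a median RNA change of 0.11 (39 above 0 and 22 below) against 0.02 over all transcripts, and a median RPF change of 0.08 against 0.00.

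**Figure D1:**
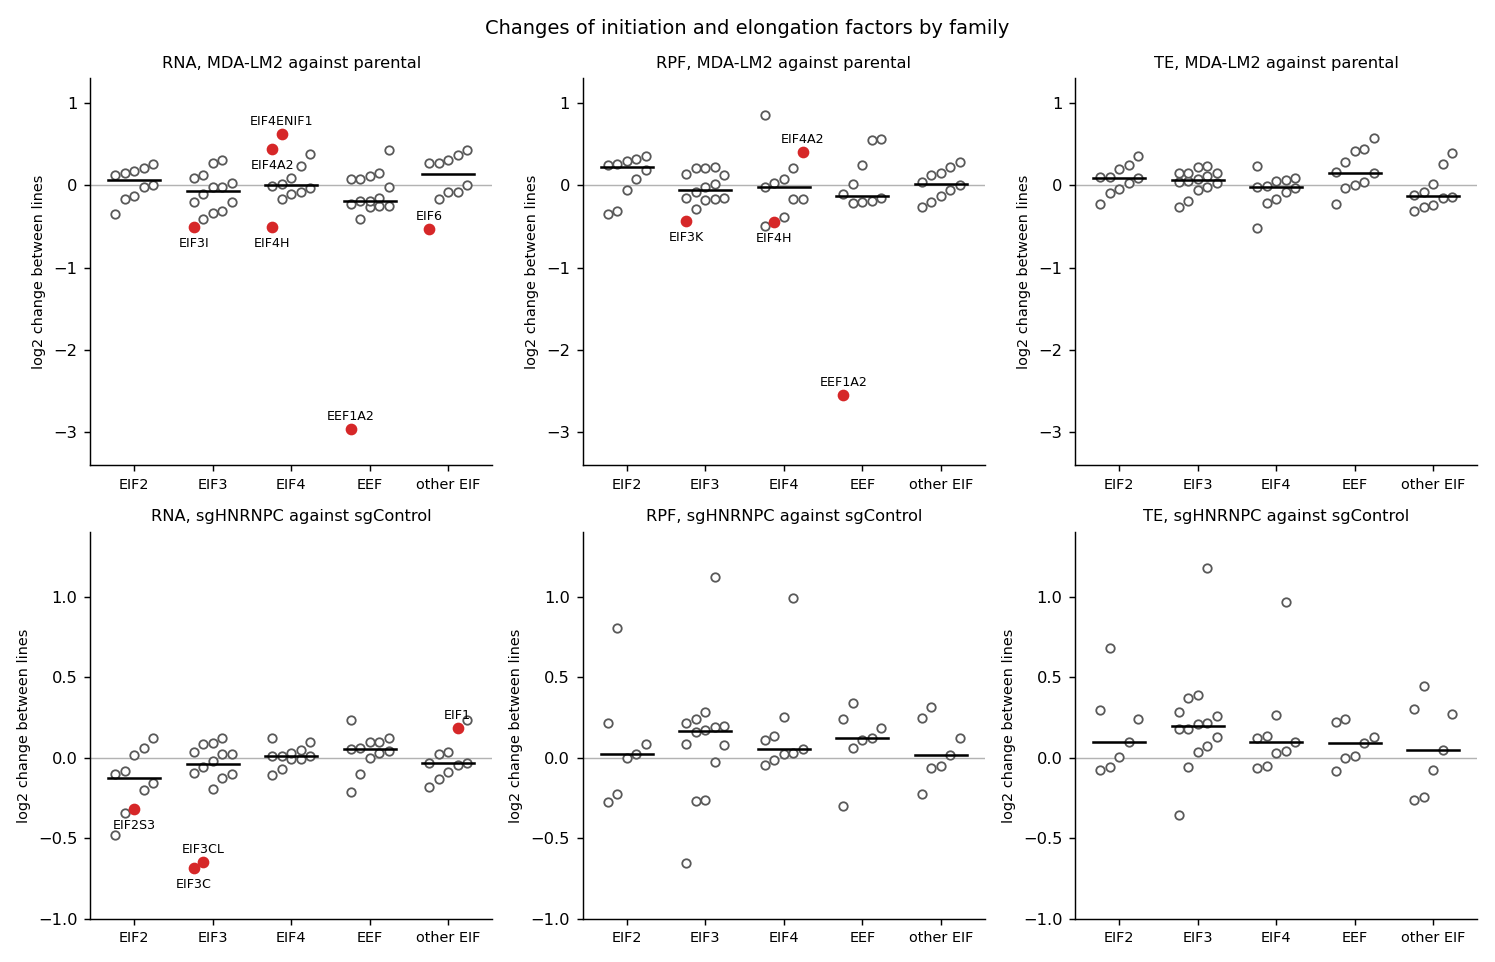
Log2 change between lines of each factor in RNA, RPF and TE, by family, for MDA-LM2 against parental (top) and sgHNRNPC against sgControl (bottom). Each circle is a factor, the bar is the family median, and filled red circles with names are factors called by limma at an adjusted p under 0.05. EEF1A2 lies far below the rest in MDA-LM2, and EIF3C and EIF3CL stand apart in the knockdown.

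EEF1A2, the second isoform of the factor that brings aminoacyl tRNA to the ribosome, normally made in muscle and neurons, showed the largest change of any factor. Its listed transcript lies at chr20:63488014-63499083 on the minus strand. RNA signal was 1779.7 and 1936 in parental cells and 256 and 219 in MDA-LM2 cells, and RPF signal was 198 and 216 against 40.5 and 29.2. The lines did not overlap in either measure, and MDA-LM2 kept 12.8% of the parental mean in RNA and 16.8% in RPF. The log2 change was -2.97 ± 0.13 in RNA (SE, n = 2 and 2, limma adjusted p = 9.45e-06) and -2.55 ± 0.16 in RPF (limma adjusted p = 4.72e-14). Its RNA change was at the 0.139 percentile of all transcripts. Its TE change was 0.41 ± 0.23 and was not called (limma adjusted p = 0.903). Of the factors called in RNA or RPF, EEF1A2 alone kept both calls under every alternative run, including each replicate left out in turn.

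EEF1A1, the isoform that most cells use, did not follow EEF1A2. Its RNA signal was 49539 and 52210.1 in parental cells and 56351 and 50842 in MDA-LM2 cells, and its RPF signal was 2287 and 2210.0 against 2067 and 1973. The RNA values overlapped, and the RPF values were lower in both MDA-LM2 libraries without a call (log2 change -0.15 ± 0.07, limma adjusted p = 0.177). Both coding sequences are 78.0% identical and share no stretch of 30 bases, so few reads could have been exchanged between them. Per kb of transcript or coding sequence, EEF1A2 made up 8.26% and 8.50% of the pair's RNA in the parental libraries and 1.12% and 1.07% in the MDA-LM2 libraries. Its share of the pair's footprints was 7.94% and 8.88% in parental and 1.92% and 1.45% in MDA-LM2 cells.

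**Figure D2:**
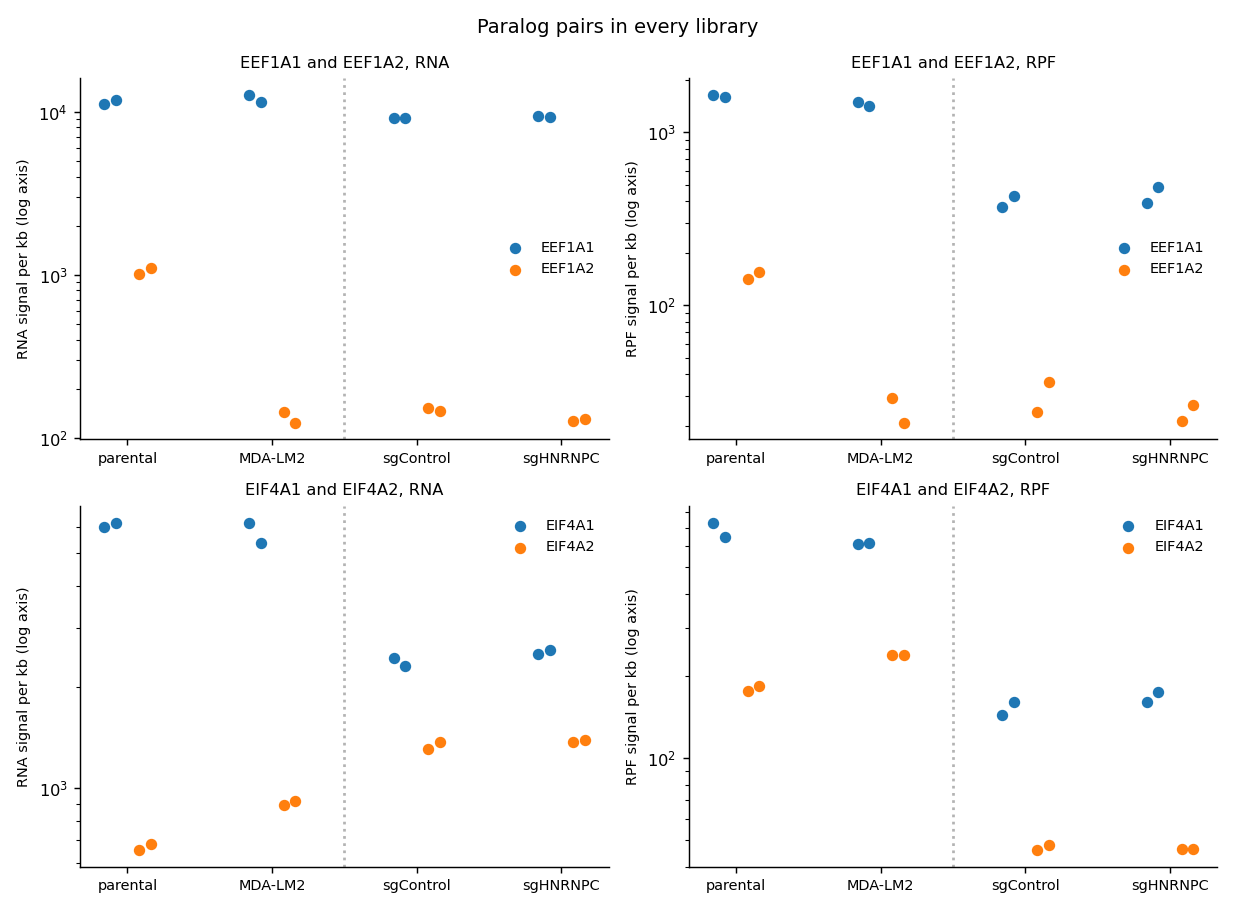
RNA signal per kb of mRNA (left) and RPF signal per kb of coding sequence (right), on log axes, of EEF1A1 and EEF1A2 (top) and EIF4A1 and EIF4A2 (bottom) in each library of the 4 lines. The dotted line separates the tables, which were normalised separately. EEF1A2 drops in MDA-LM2 in both measures and EIF4A2 rises, while EEF1A1 and EIF4A1 are not called.

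None of the other EEF genes was called. EEF2, the translocase, gave 30984 and 30095 in parental RNA and 31693 and 22736 in MDA-LM2 RNA, so a single MDA-LM2 library set its RNA change of -0.19 ± 0.20 (limma adjusted p = 0.555). Its RPF signal was 1345 and 1309.7 against 1174 and 1116, which did not overlap but missed the threshold (log2 change -0.21 ± 0.08, limma adjusted p = 0.0721). EEF1G, a subunit of the exchange complex for EEF1A, gave 804 and 751 footprints in parental and 694 and 669 in MDA-LM2 cells (log2 change -0.19, limma adjusted p = 0.163). EEF2K, the kinase that inhibits EEF2, had the largest TE estimate of all factors, 0.58 ± 0.35, from only 12.1 and 21.9 footprints in parental and 22.3 and 26.8 in MDA-LM2 cells (limma adjusted p = 0.907). The EEF family had a median RNA change of -0.19 and a median RPF change of -0.13. It was grouped by symbol and includes EEF2K, EEF2KMT and the EEF1AKMT genes, so these are not medians of elongation factors alone.

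Among the cap-binding and helicase factors, EIF4A2 rose and EIF4H fell. EIF4A2 is a paralog of the RNA helicase EIF4A1. EIF4A2 RNA was 1232 and 1289 in parental and 1684 and 1733 in MDA-LM2 cells, and its footprints were 216 and 225 against 291 and 291. Neither measure overlapped, and the log2 change was 0.44 ± 0.11 in RNA (limma adjusted p = 0.0298) and 0.40 ± 0.11 in RPF (limma adjusted p = 0.00986). EIF4A1, which gave 10538 and 10848 in parental RNA and 10789.9 and 9399 in MDA-LM2 RNA, was not called, and neither were its footprints, 889.9 and 785 against 742 and 749 (log2 change -0.16 ± 0.09). The EIF4A2 share of the pair's footprints per kb was 20.8% ± 1.93 (SD, n = 2) in parental and 28.05% ± 0.129 in MDA-LM2 cells. EIF4H, which stimulates the helicase, gave 4889.6 and 4616 in parental RNA and 3538 and 3181 in MDA-LM2 RNA. Its footprints were 283 and 225 against 205 and 167, and the log2 change was -0.50 ± 0.12 in RNA (limma adjusted p = 0.0273) and -0.44 ± 0.12 in RPF (limma adjusted p = 0.0139).

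EIF4ENIF1, a protein that carries EIF4E into the nucleus and into processing bodies, had the largest RNA rise of any factor. Its RNA was 85.3 and 84.9 in parental and 146 and 119 in MDA-LM2 cells (log2 change 0.62 ± 0.17, limma adjusted p = 0.04). Its footprints, 12 and 17.7 against 26.9 and 27.8, did not overlap either and missed the threshold (log2 change 0.86 ± 0.31, limma adjusted p = 0.0618). EIF4E itself, the cap-binding protein, gave 190.5 and 181 in parental RNA and 212 and 183 in MDA-LM2 RNA, and its footprints were 88.2 and 99.4 against 96.4 and 101. The libraries of the lines overlapped in both measures. Its inhibitor EIF4EBP1 gave 1176 and 1159 against 1493 and 1272 in RNA (log2 change 0.24 ± 0.12, limma adjusted p = 0.214) and 36.8 and 35.2 against 38.3 and 45.9 footprints. EIF4G1, the scaffold that joins EIF4E to EIF4A, gave 6763 and 7146 in parental RNA and 6381 and 6519 in MDA-LM2 RNA with overlapping footprints of 653 and 650.4 against 591 and 697.

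EIF3I and EIF3K, both subunits of EIF3, were the members of that complex with a call. EIF3I RNA was 2896 and 2887 in parental and 2076 and 1991 in MDA-LM2 cells (log2 change -0.51 ± 0.11, limma adjusted p = 0.0182), and its footprints were 361 and 298 against 290.1 and 251 (log2 change -0.28 ± 0.11, limma adjusted p = 0.0952). EIF3K footprints were 171 and 145 in parental and 127 and 106 in MDA-LM2 cells (log2 change -0.43 ± 0.14, limma adjusted p = 0.0303), with RNA of 1159.5 and 1209 against 1007 and 790.0 (log2 change -0.41 ± 0.14, limma adjusted p = 0.0797). The values of both subunits were lower in every MDA-LM2 library. EIF3A, which scaffolds the complex, overlapped in RPF with 531 and 492 against 467 and 499. The RPF changes of all 14 EIF3 genes ran from -0.43 to 0.22 with a median of -0.05, and none of their TE changes was called.

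EIF6 keeps the large ribosomal subunit from joining too early. Its RNA was 4993 and 4625 in parental and 3619 and 3055 in MDA-LM2 cells (log2 change -0.53 ± 0.13, limma adjusted p = 0.0292). Footprints were 354 and 273 against 271 and 246, lower in both MDA-LM2 libraries by a smaller amount that was not called (log2 change -0.27 ± 0.11, limma adjusted p = 0.128). EIF5A, the hypusine-bearing factor that resolves stalled ribosomes, overlapped in RNA with 8661 and 7983 against 8276 and 7427, and EIF5A2 gave 107 and 106 against 118 and 147. EIF5A shares 63.9% of its 30-base coding stretches with EIF5AL1, so their reads could not be fully told apart, and the summed RNA of both in MDA-LM2 was 94.5% of parental.

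At the settings used throughout, the EIF2 family had no call in any measure and the highest median RPF change of the families, 0.22, with 7 of 10 genes above 0. EIF2S2, the beta subunit, came nearest to the threshold with 194 and 219.8 footprints in parental and 255 and 264 in MDA-LM2 cells (log2 change 0.33 ± 0.11, limma adjusted p = 0.0508). EIF2S2 was called in RPF under equal totals, quantile normalisation, log2(value + 5), robust moderation, a minimum mean of 50, the replicate block and without parental replicate 2. EIF2S1, the alpha subunit whose phosphorylation shuts initiation down, gave 161 and 171 against 191 and 204 (log2 change 0.25 ± 0.12, limma adjusted p = 0.185). EIF2S3, the gamma subunit that binds the initiator tRNA, went the other way with 80.6 and 101 against 76.8 and 64.9 (log2 change -0.35 ± 0.16, limma adjusted p = 0.175). In the exchange factor EIF2B, EIF2B4 gave 44.7 and 47.1 footprints against 53.1 and 65.9 and EIF2B3 gave 72.3 and 63.2 against 49.3 and 59.8, again without overlap. None of these differences passed the test at the settings used throughout, and the RNA changes of the family ran from -0.34 to 0.26.

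**Figure D3:**
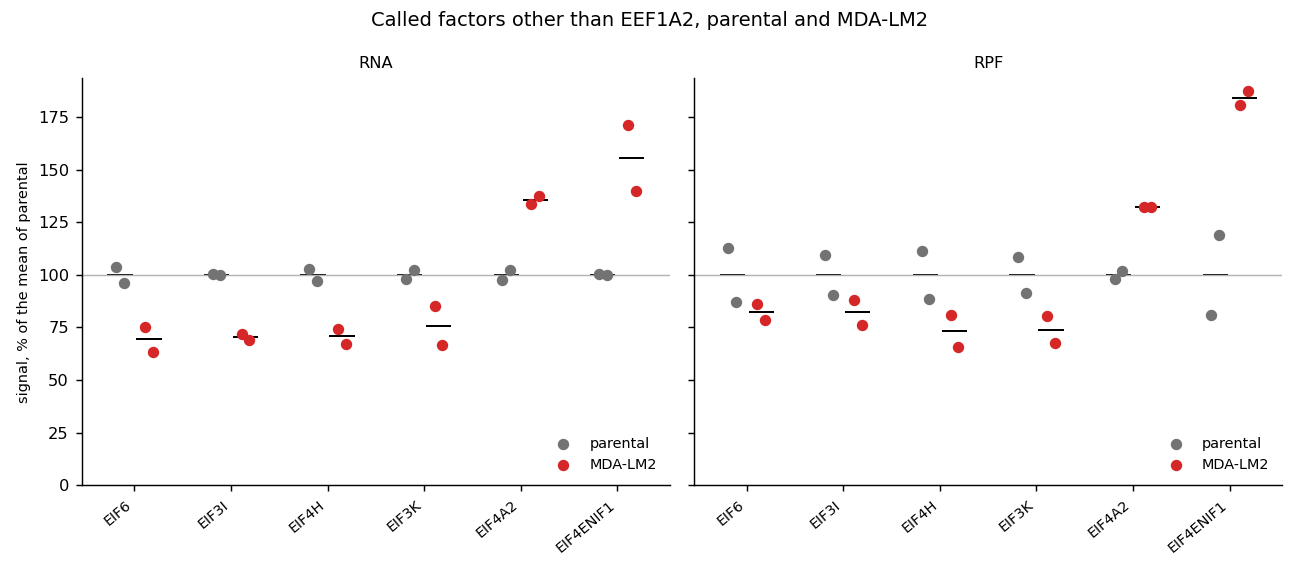
RNA (left) and RPF (right) signal of the called factors other than EEF1A2 in each parental and MDA-LM2 library, as a percentage of the parental mean of that factor. Points are libraries and bars are means of 2. EIF6, EIF3I, EIF4H and EIF3K lie below the parental libraries in RNA, EIF4A2 and EIF4ENIF1 lie above them, and the footprints of each factor lie on the same side as its RNA.

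The RNA calls other than EEF1A2 were lost when 1 parental library was left out, where the spread was estimated from the MDA-LM2 pair alone. The changes themselves kept their sign. That of EIF3I was -0.51 without parental replicate 1 and -0.51 without parental replicate 2, and that of EIF6 was -0.48 and -0.59. Without parental replicate 1, and again without parental replicate 2, EEF1A2 was the only factor called in RNA, and 5 of the 6 calls were lost. More factors were called without MDA-LM2 replicate 1 or without MDA-LM2 replicate 2, where the spread was estimated from the parental pair alone. More of all transcripts were called in those runs too. In RPF, EIF4H, EIF3K and EIF4A2 lost their calls without parental replicate 1, and EIF4H and EIF3K without MDA-LM2 replicate 2. Without parental replicate 2 further factors were called, although fewer of all transcripts were. Quantile normalisation took the RNA calls of EIF4H and EIF6, at log2 changes of -0.30 and -0.35. The RPF call of EIF3K was also lost under equal totals (log2 change -0.38) and quantile normalisation (-0.39).

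No factor was called in TE between parental and MDA-LM2 cells by limma. None of the 55 factors had an unadjusted p under 0.05, against 5.42% of all tested transcripts. Of all tested transcripts 0.0357% were called, so the absence of calls does not show an absence of change. The smallest adjusted p of a factor was 0.903. The median TE change was 0.04 for the factors and 0.03 for all tested, and it was 0.09 for EIF2, 0.07 for EIF3, -0.02 for EIF4, 0.16 for EEF and -0.13 for the other EIF genes. Logistic regression of the read kind on the line takes the signal as reads and leaves out the spread between replicates. It called 1 of 55 factors, EEF1A1, at a log2 TE change of -0.23 (logistic regression adjusted p = 4.76e-10). Of all 8393 tested transcripts it called 181. The limma estimate for EEF1A1 was the same size, -0.23 ± 0.14 (adjusted p = 0.907).

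In the knockdown the targeted gene was checked first. HNRNPC RNA was 2162 and 2146 in the sgControl libraries and 1147 and 1183 in the sgHNRNPC libraries, a mean of 54.1% of control on the log2 scale (limma adjusted p = 2.29e-35), and its footprints were 73.4 and 110.9 against 54.4 and 67.0.

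The factors as a whole had a median RNA change in sgHNRNPC cells of 0.00, with 28 factors on each side of 0, and the median of all 8980 transcripts was -0.02. RNA was called for 4 of 56 factors, or 7.14%, while 10% of all transcripts were called. EIF3C, EIF3CL and EIF2S3 fell and EIF1 rose. Quantile normalisation moved the share of higher calls among all RNA calls from 33.9% to 46.4%, and among the factors from 1 of 4 to 3 of 6.

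EIF3C, the core EIF3 subunit that contacts EIF1 and EIF5, was the factor with the largest fall. Its RNA was 895 and 937 in sgControl and 550.3 and 587 in sgHNRNPC cells, and that of its near-identical copy EIF3CL was 931 and 916 against 606 and 572. The lines were well apart in both. The log2 change was -0.69 ± 0.07 for EIF3C (limma adjusted p = 6.26e-17) and -0.65 ± 0.07 for EIF3CL (limma adjusted p = 1.27e-15), and both calls held under every alternative run. The genes lie on chromosome 16, with the listed transcripts at chr16:28711464-28735596 on the plus strand and chr16:28379715-28403841 on the minus strand. Of all stretches of 30 bases in the EIF3C coding sequence, 99.4% also occur in that of EIF3CL. The only difference between the listed coding sequences is 1 codon in a run of GAG repeats, and the window around it is shown because it is the one place where a read could tell the copies apart. Capitals mark the additional codon, whose place within the run is arbitrary, and both windows start at base 858 of the coding sequence.
EIF3C: caagcgcctggatgaggaggaggagga
EIF3CL: caagcgcctggatGAGgaggaggaggagga

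The values of the pair are therefore best read as a sum, and their 2 calls are not independent of each other. Summed RNA was 1827 and 1852 in sgControl and 1156 and 1159 in sgHNRNPC cells, or 62.9% of control. Summed footprints were 123 and 142 against 93.6 and 97.1, or 71.9% of control. Both sgHNRNPC libraries lay below both sgControl libraries in RPF, but neither gene was called there (log2 change -0.65 ± 0.19, limma adjusted p = 0.377 for EIF3C and -0.26 ± 0.19, limma adjusted p = 0.774 for EIF3CL). Per kb of coding sequence, the pair stood at 1.00 times the median EIF3 subunit in sgControl and at 0.752 times in sgHNRNPC cells. In MDA-LM2 the summed RNA was 84.5% of parental with no call for either gene.

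The remaining 12 EIF3 genes had RNA changes between -0.20 and 0.12 with no call. EIF3A gave 3758 and 3630.2 in sgControl and 3487 and 3411 in sgHNRNPC cells (log2 change -0.10 ± 0.04, limma adjusted p = 0.127). Of the 11 genes listed from 500000 bases before EIF3CL to 500000 bases after EIF3C, a window chosen after the values were seen, the other call was the stress-response gene NUPR1. NUPR1 RNA was 22.3 and 19.7 in sgControl and 76.8 and 55.6 in sgHNRNPC cells (log2 change 1.60 ± 0.26, limma adjusted p = 6.90e-07). ATXN2L and TUFM, the nearest listed genes after EIF3C, changed by -0.11 and -0.02 and were not called.

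EIF2S3, the gamma subunit of EIF2 on the X chromosome, fell in RNA from 756 and 679 to 593 and 556 (log2 change -0.32 ± 0.07, limma adjusted p = 0.000348). Its footprints, 15.7 and 17.6 in sgControl and 15.9 and 12.5 in sgHNRNPC cells, overlapped. EIF2S3B, its copy on chromosome 12, gave 111 and 109 against 81.3 and 76.0 in RNA (log2 change -0.48 ± 0.17, limma adjusted p = 0.0507). The copies share 54.4% of the 30-base stretches of the EIF2S3 coding sequence, so part of their reads could not be told apart, and their summed RNA was 78.9% of control. The other subunits of EIF2 were not called, with 936 and 877 against 911 and 919 for EIF2S1 and 1828 and 1851 against 1904 and 1923 for EIF2S2. EIF2S3 lost its call without sgControl replicate 1, at a log2 change of -0.24.

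EIF1, the guardian of start codon accuracy, was the only factor called higher. Its RNA was 1948 and 2036 in sgControl and 2267 and 2255 in sgHNRNPC cells (log2 change 0.18 ± 0.05, limma adjusted p = 0.00366), a rise of small size that lost its call without sgControl replicate 1 (log2 change 0.15). Its footprints overlapped, with 39.1 and 48.5 against 36.9 and 47.2. EIF5A gave 2149.9 and 2297 against 1972 and 2087 and lay just outside the threshold (log2 change -0.13 ± 0.05, limma adjusted p = 0.0588).

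**Figure D4:**
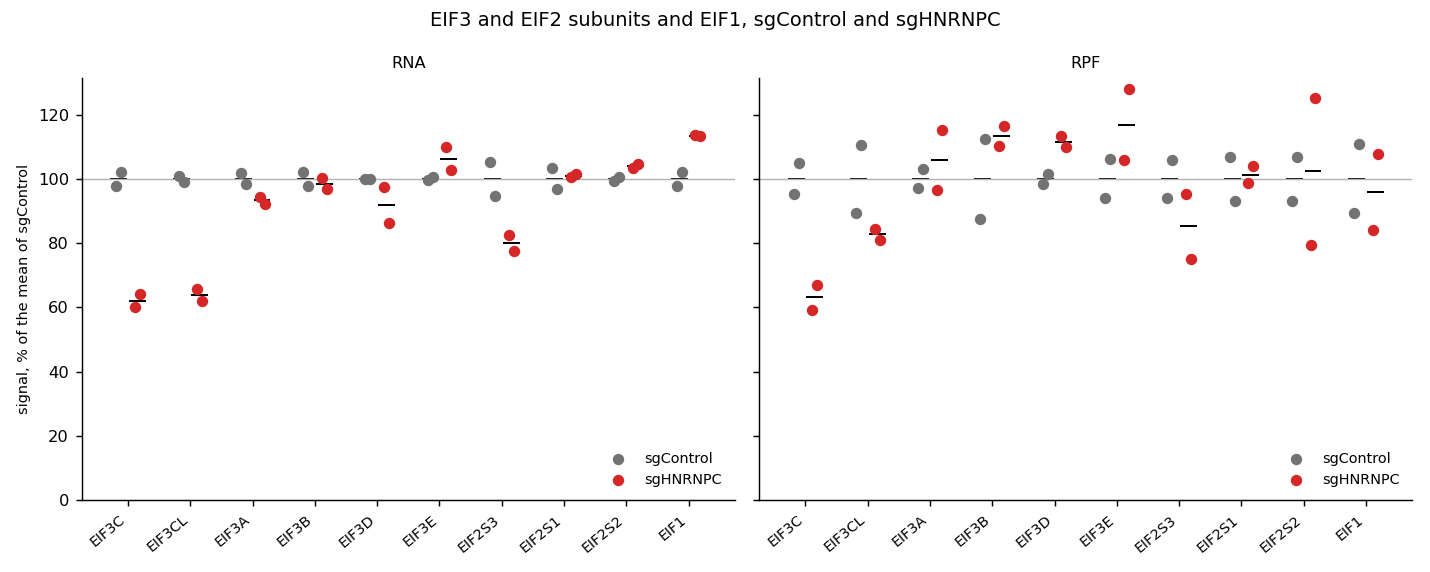
RNA (left) and RPF (right) signal of 10 factors in each sgControl and sgHNRNPC library, as a percentage of the sgControl mean. Points are libraries and bars are means of 2. EIF3C and EIF3CL fall to 62.1% and 63.8% of control in RNA while EIF3A, EIF3B, EIF3D and EIF3E stay within 10 percentage points of control on average.

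The EIF4 and EEF families had no RNA call in the knockdown, and their RNA changes ran from -0.11 to 0.12 and from -0.22 to 0.23. EIF4E gave 679 and 696 in sgControl and 675 and 711 in sgHNRNPC cells, and EIF4A1 gave 4287 and 4059.7 against 4399.8 and 4523. EIF4G1 gave 3922 and 3849 against 3675 and 3548 (log2 change -0.11 ± 0.04, limma adjusted p = 0.0936). EEF1A1 gave 40697 and 40553 against 41697 and 41253, and EEF2 gave 5121 and 5125 against 5406 and 5274. EEF1A2, which had fallen in MDA-LM2, gave 269 and 259.7 against 225 and 230.1 (log2 change -0.22 ± 0.10, limma adjusted p = 0.2).

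No factor was called in RPF or TE in the knockdown. Of the 44 tested, 4 had an unadjusted p under 0.05 in RPF and 3 in TE by limma, and the background of calls was 0.0233% in RPF and 0% in TE. Unadjusted p was under 0.05 for 7.68% and 7.75% of all tested transcripts. Logistic regression called none of the factors. The largest RPF estimate was that of EIF3J, the loosely bound EIF3 subunit, with 5.70 and 10.7 footprints in sgControl and 19.6 and 17.0 in sgHNRNPC cells (log2 change 1.12 ± 0.40, limma adjusted p = 0.483), and EIF3J reached the minimum of 10 only through sgHNRNPC. EIF4EBP1, which sequesters EIF4E, gave 8.94 and 11.9 against 17.9 and 26 (log2 change 0.99 ± 0.35, limma adjusted p = 0.472). The lines did not overlap for either gene, but the RPF values were under 30 in each library and the differences did not pass the test. EIF2B1, of the EIF2B exchange factor, gave 17.8 and 8.88 against 23.8 and 21.8 (log2 change 0.81, limma adjusted p = 0.545). RNA of EIF3J and EIF4EBP1 was not called, with 658 and 660.2 against 620.1 and 646 for EIF3J and 243 and 249 against 253 and 249.6 for EIF4EBP1. The median TE change was 0.13 over the factors, with 34 above 0 and 10 below. Over all tested transcripts it was 0.06, with 2471 above 0 and 1812 below. Without sgHNRNPC replicate 2 the median of the factors was 0.03. With all libraries the median lay above 0 in each family, from 0.05 in the other EIF genes to 0.19 in EIF3.

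The subunits of EIF3 are joined in equal numbers in the complex, so their footprints per kb of coding sequence were set side by side. In parental cells the 12 stable subunits, with EIF3C and EIF3CL summed, spanned 2.76-fold, from 123 for EIF3A to 340 for EIF3I, with a coefficient of variation of 28.2%. In sgControl cells they spanned 2.72-fold, again from EIF3A to EIF3I, with a coefficient of variation of 27.9%. EIF3J lay below them, with 64.3 and 76.5 per kb in the parental libraries and 7.36 and 13.8 in the sgControl libraries. RNA per kb of transcript was far less even, spanning 24.8-fold from EIF3M to EIF3I in parental cells and 8.66-fold from EIF3F to EIF3E in sgControl cells. Lengths were those of the listed transcripts, so reads from other isoforms could widen the range. The lowest subunits in RNA, EIF3M and EIF3F, had listed transcripts of 5047 and 7540 bases for 1122 and 1071 coding bases. Before division by length, EIF3F RNA in parental cells averaged 1709, against 1632 for EIF3L. The length divisor thus enters the contrast between RNA and RPF.

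**Figure D5:**
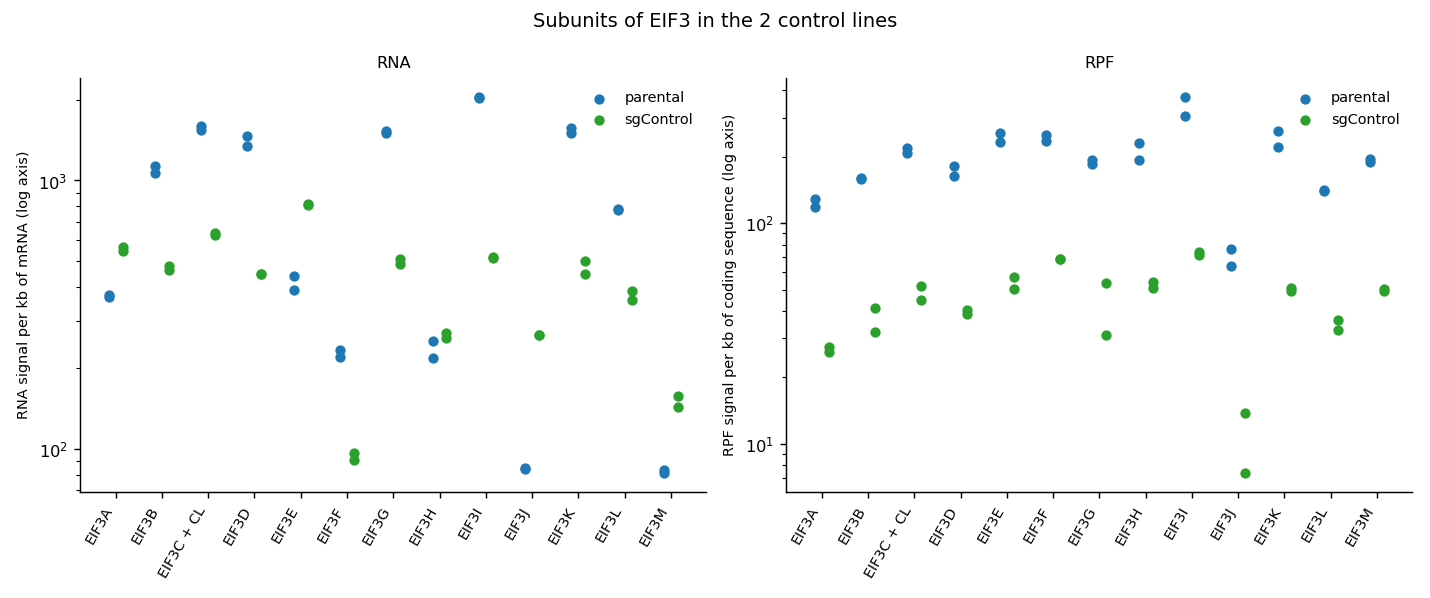
RNA signal per kb of mRNA (left) and RPF signal per kb of coding sequence (right) of the EIF3 subunits in the replicates of parental and sgControl cells, on log axes, with EIF3C and EIF3CL summed. In RPF, EIF3J is lowest and EIF3I highest in both lines, while in RNA the lowest and highest subunits differ between them.

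In EIF2, which has 3 subunits, the range was 2.36-fold in parental and 2.74-fold in sgControl cells. Summed EIF2S3 and EIF2S3B gave 87.9 footprints per kb in parental cells against 175.5 for EIF2S1 and 207 for EIF2S2. The EIF2B subunits that were listed stood lower still, between 28.1 for EIF2B4 and 85.5 for EIF2B2.

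TE per length was the RPF signal per base of coding sequence over the RNA signal per base of mRNA. Its medians differed between the families, with ranges that overlapped and no test. The value grows with mRNA length over coding length, so annotated UTR length enters these medians. In parental cells EIF1AX, with 432 coding bases in 4414, stood at 0.910 before the log. EIF3B, with 2442 in 3096, stood at 0.145, although its RPF to RNA ratios were higher, 0.112 and 0.118 against 0.0898 and 0.0882. In parental cells the median log2 value lay 0.68 above that of all tested transcripts for EIF2, 0.57 below for EIF3, 0.49 below for EIF4, 0.86 below for EEF and 1.69 above for the other EIF genes. In sgControl cells it lay 0.28 above for EIF2, 0.52 above for the other EIF genes, and 0.29, 1.38 and 0.96 below for EIF3, EIF4 and EEF. EEF1G was lowest in parental cells, at -4.31, and EIF4G2 in sgControl cells, at -5.64. Single genes did not keep their place. EIF5B stood at the 95.8 percentile of TE in parental and at the 8.95 percentile in sgControl cells, and EIF6 at the 18.6 and the 89.6 percentile. Across the 44 factors tested in both tables, Pearson's r between the lines was 0.49 and Spearman's rho 0.46, as a description over genes that share their libraries.

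The RNA values of the control lines differed more than their footprints. Between sgControl and parental cells, which are both MDA-MB-231, the log2 RNA ratio of the 56 factors, centred on all transcripts, had an SD of 1.37, and 29 factors differed by more than 1. Over all transcripts the SD was 1.36 and 51.4% differed by more than 1, a share close to that of the factors. In RPF the SD was 0.36 for the factors and 0.50 for all, and 2 factors and 5.48% of all transcripts differed by more than 1. EIF5B RNA was 156 and 171 in parental and 1081 and 1089.7 in sgControl cells, and EIF6 RNA was 4993 and 4625 against 416 and 414. Their centred log2 ratios were 3.18 and -3.07 in RNA and -0.33 and -0.43 in RPF. EEF1A2 was another case, with 1779.7 and 1936 in parental and 269 and 259.7 in sgControl RNA. Its share of the EEF1A footprints, 8.41% in parental and 6.93% in sgControl cells, was closer than its share of the RNA, 8.38% and 1.60%. Since the tables were normalised separately and differ in line, an effect of the line and one of the table cannot be told apart, and no test was run across tables.

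The TOP class of mRNA was looked for at the annotated starts of the 55 factors with a promoter in RefSeq (GRCh38.p14), whether listed or not. Of those listed for MDA-LM2 and parental cells, 13 held the motif described next and 35 did not. The motif searched was a C at the start itself followed by 4 or more C or T on the coding strand. It was present in 13 of the 55 factors, or 23.6%, against 5.14% of all 27305 genes with a promoter, 7.57% of those listed in the tables and 67.2% of 58 RPL and RPS ribosomal protein genes. Of the families, 4 of 8 EIF3, 4 of 10 EIF2, 3 of 11 EEF and 2 of 15 EIF4 genes held it, and none of 11 other EIF genes. Allowing the C within 4 bases of the start raised the counts to 34.5% of the factors and 18.6% of all genes. The starts of EEF1A1 and EEF2, of EIF2S3 with its copy and of the called EIF3K and EIF4A2 are shown with 10 bases before the start, and capitals mark the motif from the C at the start on. EIF4A1, EIF4H and EIF3I are shown beside them as factors without the motif.
EEF1A1, chr6:73521013-73521042, minus strand: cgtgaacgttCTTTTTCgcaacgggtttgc
EEF2, chr19:3985444-3985473, minus strand: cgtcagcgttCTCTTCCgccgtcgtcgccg
EIF2S3, chrX:24054946-24054975, plus strand: gatttccttcCTCTTTTggcaacatggcgg
EIF2S3B, chr12:10505880-10505909, plus strand: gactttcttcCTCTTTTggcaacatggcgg
EIF3K, chr19:38619178-38619207, plus strand: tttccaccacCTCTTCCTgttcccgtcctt
EIF4A2, chr3:186783567-186783596, plus strand: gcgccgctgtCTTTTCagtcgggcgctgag
EIF4A1, chr17:7572815-7572844, plus strand: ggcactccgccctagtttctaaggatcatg
EIF4H, chr7:74174346-74174375, plus strand: ctcgctcaccctggttcctctcggagcgga
EIF3I, chr1:32222397-32222426, plus strand: ttccggtcttactcacgttgcggccttcct

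Factors with the motif moved little as a group. Between parental and MDA-LM2 cells their median TE change was -0.04, with 4 of 13 above 0, and that of the factors without it 0.05, with 20 of 32 above 0. In the knockdown the medians were 0.09 over 11 and 0.12 over 23 factors. The called members shown above went in different directions, EIF4A2 up and EIF3K down in MDA-LM2 and EIF2S3 down in the knockdown. A C followed by 6 U, a letter run of the kind that HNRNPC binds, occurred in the annotated 3′ UTR of 40% of the 55 factors with such a UTR in the knockdown table and in 43.2% of all transcripts there. The median TE change in the knockdown was 0.11 for the 16 tested factors with the run and 0.12 for the 27 without. Over all tested transcripts there it was 0.02 for the 1756 with the run and 0.08 for the 2420 without. Between parental and MDA-LM2 cells it was 0.02 with and 0.04 without among the factors, and -0.01 and 0.07 over all tested. These differences were not tested. Of the called factors EIF2S3, EIF3I and EIF4ENIF1 held the run, and EIF3C, EIF3CL, EIF1, EEF1A2, EIF3K, EIF4A2, EIF4H and EIF6 did not.

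The regulators of these factors were followed as a list of 24 genes, the EIF2 kinases and phosphatase subunits, mTOR signalling, the hypusine enzymes, poly(A) binding proteins and release and recycling factors. In MDA-LM2, 1 of 24 was called in RNA, where 16.6% of all transcripts were, none of 22 in RPF (12% of all) and none in TE. RPS6KB2, an S6 kinase, fell from 1152 and 1019 to 707 and 548 (log2 change -0.80 ± 0.15, limma adjusted p = 0.00945). In the knockdown 2 of 23 rose and 2 fell in RNA, where 10% of all transcripts were called, and none of 15 was called in RPF or TE. MKNK2, a kinase that phosphorylates EIF4E, rose from 224 and 217 to 339 and 361 (log2 change 0.66 ± 0.10, limma adjusted p = 4.48e-08). EIF2AK2, the kinase activated by double-stranded RNA, rose from 772 and 769 to 923 and 938 (log2 change 0.27 ± 0.06, limma adjusted p = 0.000765), while EIF2AK4, the sensor of uncharged tRNA, fell from 863 and 838 to 729 and 755 (log2 change -0.20 ± 0.06, limma adjusted p = 0.0276). GSPT1, the release factor GTPase, fell from 1278 and 1250.1 to 970 and 951 (log2 change -0.40 ± 0.06, limma adjusted p = 1.49e-08).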

How the data were processed

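The authors deposited normalised signal values, 1 transcript per gene. Per the study's methods and labels, the authors removed linkers with cutadapt 2.3, collapsed molecular identifiers of footprints, aligned with Bowtie2 2.3.5 to the isoform with the longest coding sequence, and scaled RNA and RPF counts separately by median-of-ratios. An optional correction of stalling peaks is described, and whether these files passed through it is not given in the sources used here, so RPF depth in reads is unknown. RNA values under 1000 were whole multiples, within 0.02 of a step, of 0.883 to 1.11.

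Transcripts were matched to GENCODE 44 on hg38 (97.9% in each table). The others were kept unnamed. Symbols starting EIF or EEF gave the members. The members and lists were chosen with earlier results of these data known. Values were analysed as log2(value + 1) in R 4.3.3 with limma 3.58.1 (trend), RNA and RPF within their own 4 libraries and TE as the interaction of line and library kind. Fold changes of low values are understated on that scale. RPF and TE were tested where RPF and RNA both averaged 10 or more. Tests were two-sided, with Benjamini-Hochberg adjustment over all transcripts tested. Every member is accounted for, and values per library are given for called members and a core of EEF1A1, EEF1A2, EEF2, EIF4E, EIF4EBP1, EIF4G1, EIF4A1, EIF2S1, EIF2S3, EIF3A, EIF5A and EIF5A2. Others named were chosen after their values were seen. The alternatives were other added values, scalings, filters and moderation, logistic regression, a replicate term and each replicate left out. The fits were tested on simulated data, with independent normal noise of the spread that limma had fitted, so uneven replicates were not covered. Labels name duplicates but no batch, and with 2 replicates p-values measure only the spread between those. With 2 libraries a line, values often do not overlap without any change, so non-overlap alone is not evidence of one. Replicate numbers were not treated as pairs: deviations of same-numbered samples correlated at 0.234 and 0.0443 (RNA and RPF, MDA-LM2) and at -0.00377 and 0.0281 (knockdown). Coding sequences were compared with Biopython 1.88.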

Additional observations from a re-analysis of the deposited data

How the results depend on the processing

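Of the values compared across alternatives, no called value changed sign. With libraries rescaled to equal totals, RNA calls among the factors in MDA-LM2 numbered 10 in place of 6. Over all 10799 transcripts they numbered 2072 in place of 1796. The median changes of the factors were 0.15 in RNA, 0.0613 in RPF and -0.0792 in TE, and the median RNA change in the knockdown was -0.0156. Quantile normalisation gave medians of 0.109 in RNA (0.0185 over all transcripts), 0.0754 in RPF (0.00394) and -0.0194 in TE (-0.00944) in MDA-LM2 and of 0.0144 in RNA in the knockdown. A minimum mean of 50 gave 7 RPF calls among 44 factors in MDA-LM2 in place of 4, with a median of -0.0382. Of all 3511 transcripts tested there, 730 were called. Logistic regression called 1 of 55 factors in TE in MDA-LM2, and 181 of all 8393 tested transcripts. With the replicate number as a block, 13 factors were called in RPF in MDA-LM2 in place of 4, and 1300 of all 8393 transcripts in place of 1010. In RNA 8 factors were called in place of 6. With only 2 pairs the numbers do not establish a pairing. The cause of these shifts was not tested.

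Leaving out each library in turn gave 1 to 24 RNA calls and 1 to 8 RPF calls in MDA-LM2, with medians of -0.0262 to 0.00542 in RNA, -0.0561 to 0.0207 in RPF and 0.00362 to 0.0781 in TE. In the knockdown the medians were -0.0276 to 0.00622 in RNA, 0.0281 to 0.149 in RPF and 0.0337 to 0.208 in TE. The lone library of a line is then assumed to vary like the others. The added values of 0.5 and 5, robust moderation, no filter and TE within numbered pairs left every count of calls within 1.5 times. Count tests were planned on recovered RNA reads and not run, since whole reads could not be established as recovered. Low RPF signal limits the knockdown, where 12 of 56 factors fell under the minimum mean in RPF and none of the 44 others was called. With 2 replicates, differences well beyond their SE could also go uncalled, such as the RPF change of EEF2 in MDA-LM2, -0.21 ± 0.08.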
